A study of Mus musculus with 2 samples.

Results

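The 9 receptor genes described here, of 32285 genes in the deposited tables, encode chemokine receptors and receptors for the lipid sphingosine-1-phosphate (S1P). They were taken as a list of gene symbols: Cx3cr1, Ccr2, Ccr7, Cxcr2, Cxcr3, Cxcr4, Cxcr6, S1pr1 and S1pr5. Each symbol matched 1 row in both libraries. Their levels were compared across leukocyte classes and across subsets of natural killer (NK) cells, T cells, B cells, monocytes, dendritic cells (DCs) and macrophages that were gated by markers other than these genes. The cells were living CD45+ cells, that is leukocytes, sorted from digested adrenal glands of wild-type C57Bl/6 mice aged 7 weeks. There was 1 droplet library from female mice and 1 from male mice. How many animals gave each library was not stated, so a difference between the libraries cannot be told apart from a difference between animals or preparations.

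Chemokine receptors are G protein-coupled receptors that steer leukocytes along gradients of small secreted proteins and hold them at sites where the ligand is made. CCR2 lets classical monocytes leave bone marrow and enter tissue, CX3CR1 binds fractalkine and marks nonclassical monocytes and many resident macrophages, and CXCR2 and CXCR4 act in opposite directions on the release of neutrophils from marrow. CCR7 and S1PR1 are the entry and exit receptors of recirculating lymphocytes in lymph nodes, S1PR5 serves the exit of NK cells and nonclassical monocytes into blood, and CXCR3 and CXCR6 are carried by effector and tissue-resident lymphocytes.

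After filtering, 3693 female and 2450 male cells were kept, with a median of 3491 and 2988 unique molecular identifiers (UMIs, each a counted transcript molecule) per cell. Of 73 class markers, 65 were highest in the class they stand for in both libraries. The same markers were used to name the classes, so this is a description and not an independent check. The macrophage class held 22.0% of female and 32.2% of male cells, NK cells 23.4% and 15.1%, T cells 18.0% and 14.7%, and B cells 14.0% and 10.9%. Endothelial cells, which a CD45 sort should remove, made up 1.22% and 2.00%, and 171 female and 181 male cells stayed unnamed. Only 2 cell barcodes were shared by the libraries. A level is given as CPM, the share of a gene in all UMIs of the cells of a group scaled to 1e6, with an exact Poisson 95% interval where one is printed. All intervals cover counting error only. For tests between subsets, the UMIs of each subset were summed per library. The female and male sums served as its 2 samples in an edgeR quasi-likelihood fit across 36 sums and 7364 genes with library as a covariate, and a gene was called at a Benjamini-Hochberg adjusted p under 0.05 and a fold of at least 2. These p-values measure how far subsets differ between 2 libraries and not the spread between animals.

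The plot of levels by subset covers the 18 subsets with at least 20 cells in each library, and both libraries gave similar orders. Over those 18 subsets, female and male log2(CPM + 10) had a Pearson r from 0.90 for Cxcr3 to 0.98 for Cxcr2, given as a description because the gates are shared. Neutrophils held 91.8% of female and 88.9% of male Cxcr2 UMIs. Macrophages held 75.3% and 79.9% of those of Cx3cr1. NK cells held 69.6% and 61.0% of those of S1pr5, and T cells 60.3% and 62.4% of those of Ccr7. Ccr2, Cxcr4 and S1pr1 were spread over more classes. The largest share of any class was 26.4% in the female and 33.0% in the male library for Ccr2, 33.5% and 26.3% for Cxcr4, and 44.4% and 37.5% for S1pr1.

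**Figure D1:**
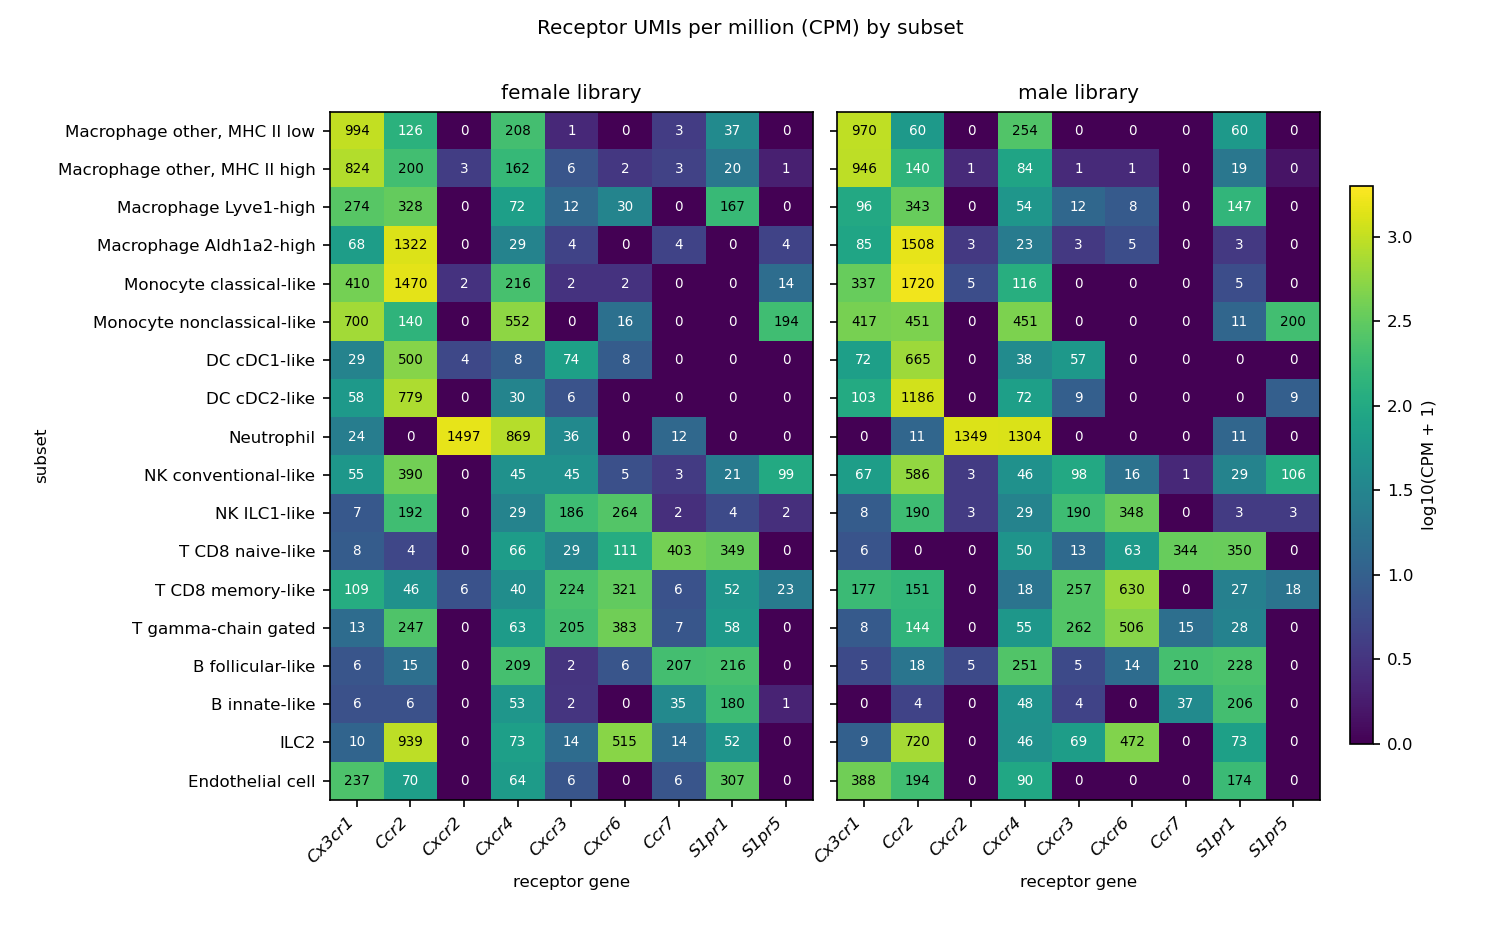
Level (CPM) of the 9 receptor genes (columns) in 18 subsets (rows), female library on the left and male library on the right, with the CPM printed in each cell and the colour giving log10(CPM + 1). Cxcr2 passes 10 CPM only in the neutrophil row, at 1497 and 1349 CPM, while Ccr2 passes 100 CPM in rows of myeloid and lymphoid cells alike.

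Cx3cr1, the fractalkine receptor gene, and Ccr2, the receptor gene for the monocyte chemoattractants, lay at opposite ends of the macrophage subsets. Macrophages were split by distinct marker genes into a Lyve1-high subset (57 female and 113 male cells), an Aldh1a2-high subset (79 and 94 cells) and other macrophages, which were divided again by the summed UMIs of 4 MHC class II genes. In other macrophages Cx3cr1 stood at 994 CPM (922 to 1071) female and 970 CPM (749 to 1236) male where MHC class II was low, and at 824 CPM (785 to 864) and 946 CPM (904 to 990) where it was high. It was lower in Lyve1-high macrophages, at 274 CPM female and 96.4 CPM male, and stood at 68.3 and 85.2 CPM in Aldh1a2-high macrophages, which in the male library overlapped the Lyve1-high interval (62.4 to 142). No interval of the Aldh1a2-high subset reached those of the other macrophages in either library. Ccr2 ran the other way. It stood at 1322 CPM (1191 to 1465) female and 1508 CPM (1390 to 1633) male in Aldh1a2-high macrophages, at 328 and 343 CPM in Lyve1-high macrophages, and at 200 and 140 CPM in the other macrophages with high MHC class II.

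Against other macrophages, 4 of the 9 receptor genes were called in the Aldh1a2-high subset, where 19.5% of all genes tested were called. In the Lyve1-high subset 5 of 9 were called, where 14.9% of all genes were. In these tests the MHC class II low and high groups of other macrophages weighed equally. The CPM printed for other macrophages pools the UMIs of both groups, most of them from the high group. Differences in the female or male library alone use the pooled CPM too, so they have another comparator than the test. In the Aldh1a2-high subset Ccr2 was higher by a log2 fold change of 3.24 (SE 0.21, edgeR adjusted p = 1.28e-22) and Cx3cr1 was lower, with a log2 fold change of -3.61 (SE 0.26, edgeR adjusted p = 1.33e-20). Cxcr4, the receptor gene for the retention chemokine Cxcl12, was at 28.8 and 22.5 CPM there against 174 and 89.7 CPM in other macrophages (log2 fold change -2.69, SE 0.35, edgeR adjusted p = 8.94e-10, and -1.95 in the male library alone). S1pr1 was nearly absent from this subset, with 1 UMI in both libraries together against 109 in other macrophages, a ratio of 15.3 between the groups with a counting interval of 2.68 to 608.

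Of the macrophage subsets, the Lyve1-high one had most S1pr1. It stood at 167 CPM female and 147 CPM male there, against 24.0 and 20.6 CPM in pooled other macrophages. Against the equally weighted groups of other macrophages it was higher with a log2 fold change of 2.33 (SE 0.30, edgeR adjusted p = 1.89e-09). Other macrophages with low MHC class II had 36.8 and 59.7 CPM, and the male interval (16.3 to 153) overlapped the Lyve1-high one (104 to 201). Macrophages that passed no subset gate had 82.0 CPM (44.8 to 138) female, overlapping 111 to 241, and 12.5 CPM male. Cx3cr1 was lower in the Lyve1-high subset in both libraries (log2 fold change -2.58, SE 0.24, edgeR adjusted p = 1.85e-14), but by unequal amounts, -1.66 in the female and -3.28 in the male library alone. The 5 cells with most Cx3cr1 of that subset accounted for 69.6% of the female UMIs and 80% of the male ones. Cxcr4 was lower (log2 fold change -1.52, edgeR adjusted p = 1.78e-04). In the male library alone, against pooled other macrophages, the difference was -0.72, short of 2-fold. These values have different comparators. The MHC class II low group, which weighs equally in the test, had Cxcr4 at 208 CPM female and 254 CPM male. The high group had 162 and 84.3 CPM. The Ccr2 difference was the smallest, at a log2 fold change of 1.05 (SE 0.26, edgeR adjusted p = 0.00133). In that subset 5 cells held 60% and 70.8% of the Ccr2 UMIs, and 17 of 57 female and 17 of 113 male cells held one. The difference was 0.85 in the female library alone and was no longer called without the low-count filter (0.90) or with doublets kept (0.72). Cxcr6 was called as well, on 5 female and 2 male UMIs against 5 and 3.

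Within the cluster led by Folr2 and Lyve1, Ccr2 differed between gated and ungated cells. Cells of that cluster that passed the gate carried 360 CPM (267 to 476, 49 female cells) and 362 CPM (291 to 446, 109 male cells). Cells of the same cluster that passed no macrophage subset gate carried 1571 CPM (1282 to 1905, 22 cells) and 1293 CPM (1080 to 1537, 31 cells). Their Cx3cr1 stood at 153 and 60.2 CPM. Ungated cells held at least 2 markers of the Lyve1-high or Aldh1a2-high list but failed the gate's minimum or share. MHC class II high other macrophages of that cluster carried Ccr2 at 1195 CPM (757.6 to 1793, 11 female cells) and 852.5 CPM (466 to 1430, 9 male cells). These comparisons were made after the values were seen.

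None of the 9 genes was called by edgeR or by DESeq2 between MHC class II low and high other macrophages, where 1.1% of all genes were called, and 3 had an unadjusted p under 0.05. Cx3cr1 had a log2 fold change of -8.29e-05 (SE 0.17). Cxcr4 stood at 208 CPM female and 254 CPM male where MHC class II was low, against 162 and 84.3 CPM where it was high (log2 fold change 0.66, SE 0.25, edgeR adjusted p = 0.267). Only 21 male cells fell in the MHC class II low group, against 158 female cells.

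**Figure D2:**
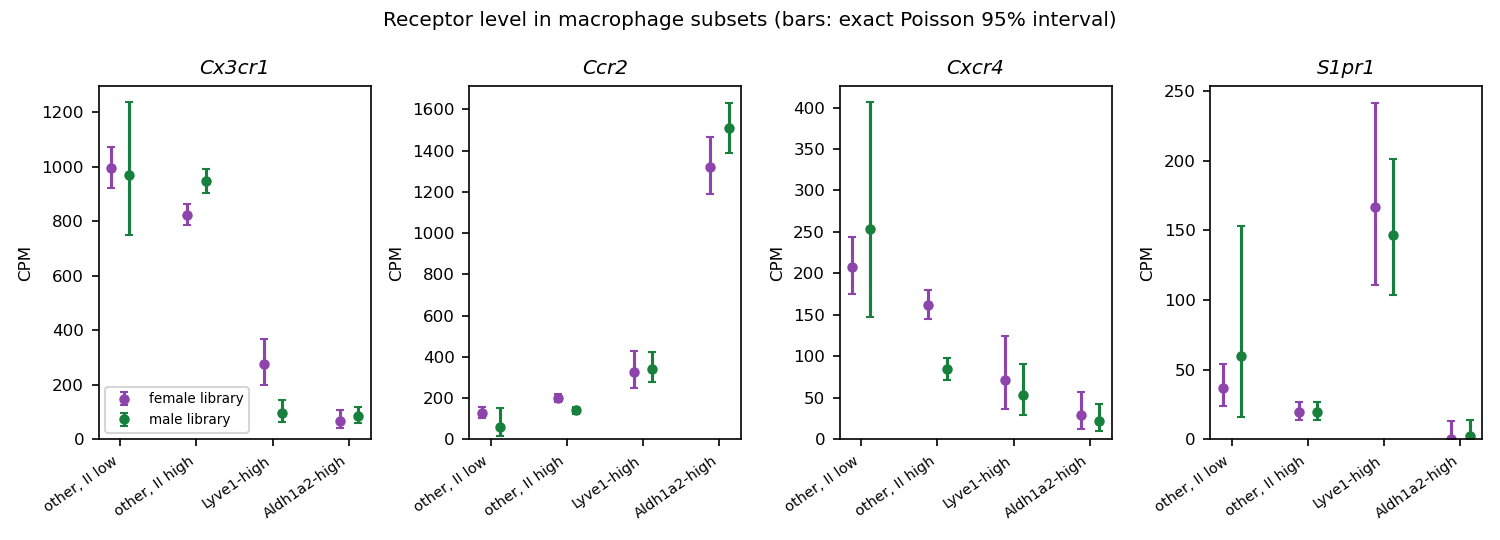
Level of Cx3cr1, Ccr2, Cxcr4 and S1pr1 (CPM, linear axes from 0) in the 4 macrophage subsets, female library in purple and male library in green, with exact Poisson 95% intervals as bars. Cx3cr1 falls from 994 and 970 CPM in MHC class II low other macrophages to 68.3 and 85.2 CPM in Aldh1a2-high macrophages, Ccr2 peaks in the latter at 1322 and 1508 CPM, and S1pr1 peaks in Lyve1-high macrophages at 167 and 147 CPM.

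Monocytes were divided by marker genes into classical-like cells (127 female and 54 male) and nonclassical-like cells (65 and 66). Of the 18 subsets, Ccr2 was highest in classical-like monocytes, at 1470 CPM (1365 to 1581) female and 1720 CPM (1542 to 1912) male. This did not lie clear of the Aldh1a2-high macrophages, the next in order, in either library. In nonclassical-like monocytes it was 140 and 451 CPM. The classical-like cells were higher (log2 fold change 2.55, SE 0.27, edgeR adjusted p = 1.19e-11), by 3.38 in the female and 1.93 in the male library alone. S1pr5 and Cxcr4 went the other way. S1pr5 reached 194 CPM (126 to 287) female and 200 CPM (140 to 277) male in nonclassical-like monocytes, the highest of the 18 subsets and clear of the next in both libraries, and at 14.2 CPM and 0 CPM in classical-like ones (log2 fold change -4.11, SE 0.54, edgeR adjusted p = 2.23e-08). Cxcr4 was at 552 and 451 CPM against 216 and 116 CPM (log2 fold change -1.33, SE 0.26, edgeR adjusted p = 1.61e-04, and -1.95 in the male library alone). These were 3 of the 9 genes, with 6.93% of all genes called.

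Cx3cr1, the gene by which nonclassical monocytes are often recognised, was not called. It stood at 700 CPM (563 to 860) female and 417 CPM (328 to 523) male in nonclassical-like cells against 411 CPM (356 to 471) and 337 CPM (261 to 428) in classical-like cells, with a log2 fold change of -0.35 (SE 0.25, edgeR adjusted p = 0.487). The male intervals overlapped and the female ones did not. Among classical-like monocytes thinned to 1000 UMIs, 27 of 125 female and 9 of 52 male cells held both a Ccr2 and a Cx3cr1 UMI, and among nonclassical-like cells 2 of 52 and 4 of 64 did.

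Neutrophils (47 female and 50 male cells) carried Cxcr2, which binds the neutrophil-recruiting CXC chemokines, at 1497 CPM (1245 to 1784) and 1349 CPM (1118 to 1613). No other subset passed 10 CPM in either library. After thinning to 1000 UMIs, 77.5% of female and 68.3% of male neutrophils held a Cxcr2 UMI (87.2% and 84.0% unthinned), against 0.129% and 0.134% of macrophages, whose median depths were 3706 and 2921 UMIs against 1649 and 1654 in neutrophils. Of the 18 subsets, Cxcr4 was highest there too, at 869 CPM (680 to 1094) and 1304 CPM (1077 to 1564), and only in the male library did this lie clear of the 451 CPM (358 to 560) of nonclassical-like monocytes. The female interval of neutrophils began at 680 CPM and that of nonclassical-like monocytes reached 696 CPM. Both Cxcr2 and Cxcr4 were detected in 14 of 40 female and 17 of 41 male thinned neutrophils.

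NK cells fell into groups with different receptors. Gated on marker genes such as Itga1 and Il7r, ILC1-like cells numbered 235 and 132, and conventional-like cells, gated on Eomes, Itga2 and Klra genes among others, numbered 368 and 159. Cxcr6, the receptor gene for the membrane-bound chemokine Cxcl16, was at 264 CPM (235 to 296) female and 348 CPM (306 to 393) male in ILC1-like cells and at 5.47 and 16.4 CPM in conventional-like cells. S1pr5 was the mirror image, at 1.79 and 2.73 CPM in ILC1-like cells against 99.1 CPM (83.6 to 117) and 107 CPM (84.2 to 133). The intervals of the groups were apart in both libraries for both genes.

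In the test 6 of the 9 genes were called, with 4.39% of all genes called. Higher in ILC1-like cells were Cxcr6 (log2 fold change 4.96, SE 0.32, edgeR adjusted p = 7.13e-22) and Cxcr3, which binds the interferon-induced chemokines Cxcl9 and Cxcl10 (2.83-fold, edgeR adjusted p = 4.57e-06). Lower were S1pr5 (-5.37, SE 0.50, edgeR adjusted p = 7.34e-14), Cx3cr1 (-2.91, SE 0.41, edgeR adjusted p = 4.78e-08), S1pr1 (-2.56, SE 0.51) and Ccr2 (-1.31, SE 0.24, edgeR adjusted p = 2.43e-05). Cxcr3 stood at 186 and 190 CPM in ILC1-like cells, and at 45.1 CPM in female but 98.3 CPM in male conventional-like cells, so that the male difference alone was 0.94 on the log2 scale. For Cxcr6 the female library alone gave 5.36 and the male one 4.33. Ccr2 stayed a gene of both groups, at 192 and 190 CPM in ILC1-like cells and 390 and 586 CPM in conventional-like cells. With DESeq2 the fold changes of Ccr2 (-1.30) and Cxcr3 (1.45) were alike but did not pass the adjusted p threshold, and under a stricter gate the Ccr2 difference was -0.81 and was not called.

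After thinning to 1000 UMIs, ILC1-like cells with a Cxcr6 UMI made up 21.7% (female) and 30.3% (male) of their group (59.6% and 73.5% unthinned), and conventional-like cells with an S1pr5 UMI 11.3% and 10.8% of theirs (29.4% and 33.3% unthinned). The same thinning gave Cxcr6 in 0.388% and 0.536% of macrophages and S1pr5 in 0.129% and 0.134% of them. The median depth was 4412 and 5337 UMIs in ILC1-like cells and 3532 and 4203 UMIs in conventional-like cells. Both Cxcr6 and Cxcr3 were detected in 12 of 235 (female) and 9 of 132 (male) thinned ILC1-like cells.

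Since S1pr5 and Cx3cr1 were lower together, and Cxcr6 and Cxcr3 higher together, in ILC1-like NK cells, their start regions are shown. Each runs from 250 bases before to 50 bases after the start of the gene in RefSeq (GRCm38.p6), 5′ to 3′ on the gene's strand. Promoters of 7 of the 9 genes were matched. Capitals mark 3 short motifs searched on both strands: CCACCC, a box bound by Krüppel-like factors such as Klf2; TCACAC, found in sites of T-box factors such as Tbx21; and CACCTG, an E-box bound by Zeb2. The regions are chr9:120068247-120068546 on the minus strand for Cx3cr1, chr9:21248394-21248693 on the minus strand for S1pr5, chr9:123806227-123806526 on the plus strand for Cxcr6 and chrX:101734098-101734397 on the minus strand for Cxcr3.
Cx3cr1: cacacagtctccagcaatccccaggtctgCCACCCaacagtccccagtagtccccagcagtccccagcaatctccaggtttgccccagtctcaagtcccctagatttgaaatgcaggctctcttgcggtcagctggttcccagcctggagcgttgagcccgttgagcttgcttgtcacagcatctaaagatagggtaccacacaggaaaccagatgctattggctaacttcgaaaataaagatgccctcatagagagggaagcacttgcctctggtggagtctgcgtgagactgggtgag
S1pr5: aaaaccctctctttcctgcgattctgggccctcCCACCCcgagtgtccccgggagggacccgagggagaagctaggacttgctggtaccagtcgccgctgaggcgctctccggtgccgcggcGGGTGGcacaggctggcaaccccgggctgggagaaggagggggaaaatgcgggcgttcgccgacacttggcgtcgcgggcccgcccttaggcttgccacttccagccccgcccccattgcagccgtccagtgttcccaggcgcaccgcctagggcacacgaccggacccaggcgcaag
Cxcr6: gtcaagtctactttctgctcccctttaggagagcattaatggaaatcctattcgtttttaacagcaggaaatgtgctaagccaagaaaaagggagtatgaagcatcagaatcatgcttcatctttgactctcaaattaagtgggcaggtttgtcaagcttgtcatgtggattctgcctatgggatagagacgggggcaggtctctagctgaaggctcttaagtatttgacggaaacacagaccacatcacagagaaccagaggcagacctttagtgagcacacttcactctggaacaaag
Cxcr3: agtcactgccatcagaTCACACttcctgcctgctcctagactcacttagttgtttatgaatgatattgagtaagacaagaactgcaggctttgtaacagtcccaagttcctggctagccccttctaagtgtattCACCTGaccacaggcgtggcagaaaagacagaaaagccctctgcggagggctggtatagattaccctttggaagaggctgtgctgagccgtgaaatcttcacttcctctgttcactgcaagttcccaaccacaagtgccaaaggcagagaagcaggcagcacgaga

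CCACCC or its reverse complement was present in the windows of Cx3cr1, Cxcr2 and S1pr5 and in 31.5% of 32851 promoters of that length. TCACAC was present in the window of Cxcr3 and in 14.5% of all promoters, and CACCTG in those of Cxcr2 and Cxcr3 and in 20.2%. None of the 3 was in the Cxcr6 window, which says only that these letters are not there. The 3 motifs share no bases where they occur in the 4 printed windows. These matches are descriptions of sequence and do not show that a factor binds there. In the GENCODE M21 annotation, Cx3cr1 (chr9:119901616-120069879, minus strand) overlaps Gorasp1, Csrnp1 and Xirp1 on its own strand. Whether this overlap affected its counts was not tested. Of the other members, S1pr5 (chr9:21242912-21248443, minus strand), Cxcr6 (chr9:123806475-123811760, plus strand), Cxcr3 (chrX:101731535-101734269, minus strand), Ccr2 (chr9:124101950-124113557, plus strand), Ccr7 (chr11:99144196-99155077, minus strand), Cxcr2 (chr1:74153989-74161246, plus strand), Cxcr4 (chr1:128588199-128592293, minus strand) and S1pr1 (chr3:115710433-115715072, minus strand) had no such neighbour.

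**Figure D3:**
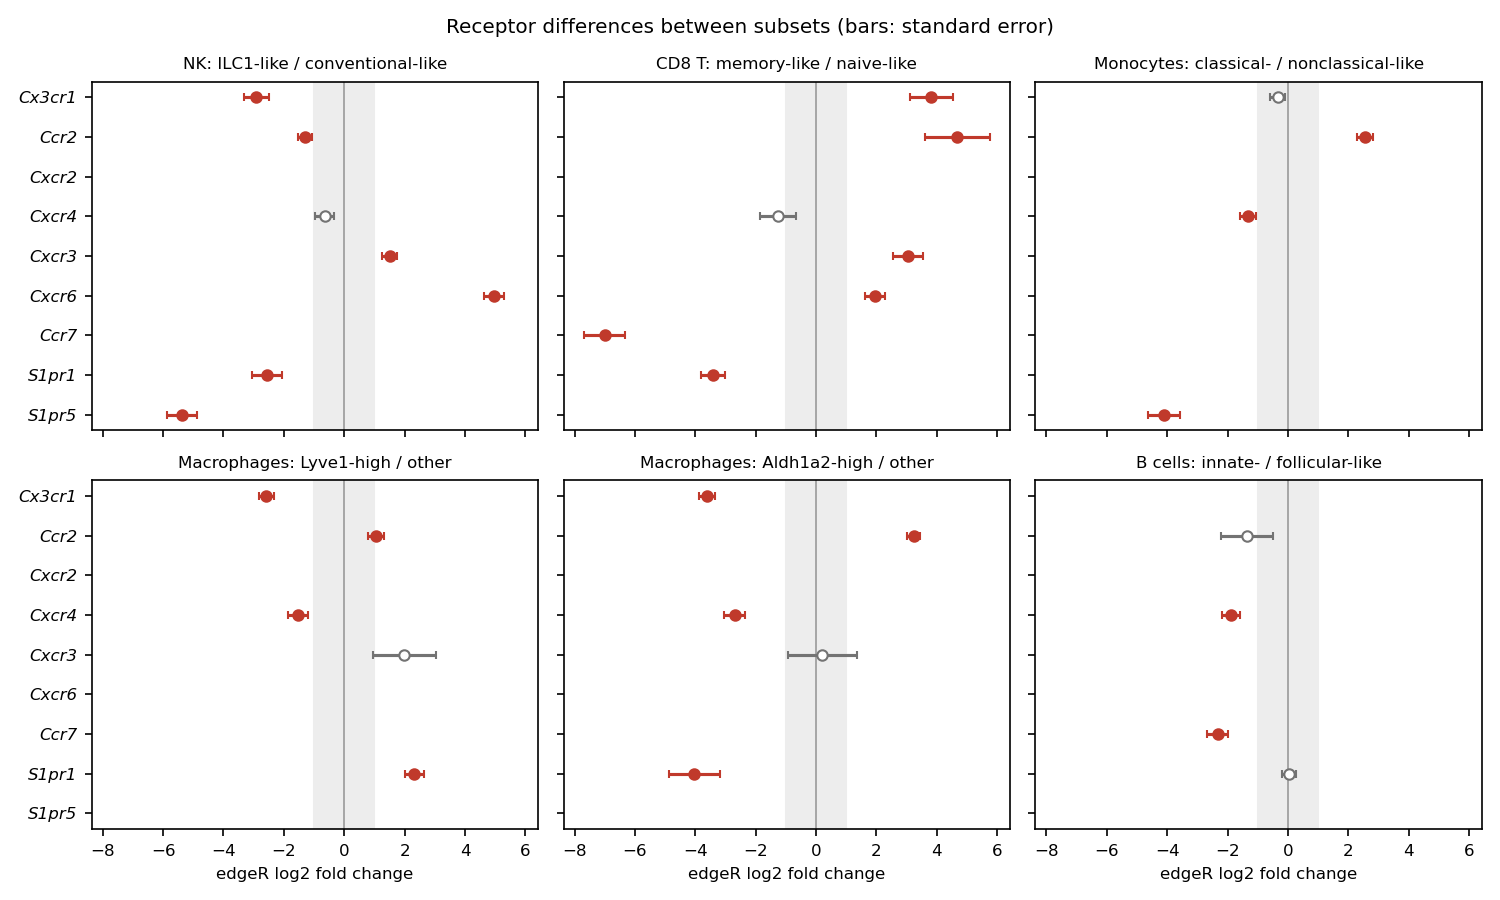
edgeR log2 fold changes (points) with standard errors (bars) of the receptor genes in 6 comparisons of subsets, with red filled points for called genes, open grey points for the others and the range under 2-fold shaded; genes with fewer than 10 UMIs in both groups are left out. Cxcr6 at 4.96 and S1pr5 at -5.37 mark the ends in NK cells, and Ccr7 at -7.01 is the lowest in CD8 T cells.

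In T cells the receptors divided naive-like from memory-like cells. Among CD8 T cells, 58 female and 40 male cells were naive-like and 35 and 28 were memory-like, gated on genes including Lef1, Dapl1, Igfbp4 and Tcf7 against Ccl5, Nkg7, S100a4, S100a6, Id2 and Cd44. Ccr7 stood at 403 CPM (327 to 491) female and 344 CPM (259 to 448) male in naive-like cells, the highest of the 18 subsets with this gate, and at 5.73 and 0 CPM in memory-like cells. A stricter gate left 7 female and 5 male naive-like cells, with Ccr7 at 161 CPM (44.0 to 413) and 164 CPM (33.9 to 481), below the level in follicular-like B cells. S1pr1 stood at 349 CPM (279 to 432) female and 351 CPM (265 to 455) male against 51.6 and 26.6 CPM. Cxcr3 was at 28.8 and 12.5 CPM in naive-like and 224 and 257 CPM in memory-like cells, and Cxcr6 at 111 and 62.6 CPM against 321 and 630 CPM. In all 4 genes the groups were apart in both libraries.

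Of the 9 genes 6 were called in this comparison, with 4.68% of all genes called. S1pr1 was lower in memory-like cells by a log2 fold change of -3.41 (SE 0.39, edgeR adjusted p = 1.76e-10). Cxcr3 was higher by 3.05 (SE 0.50, edgeR adjusted p = 4.88e-06) and Cxcr6 by 1.95 (SE 0.33, edgeR adjusted p = 8.96e-06). Taken alone, the female library gave 1.52 for Cxcr6 and the male library 3.31, and the male library gave 4.26 for Cxcr3, while the female one gave -2.73 for S1pr1. Ccr7 rested on 153 naive-like UMIs against 1 memory-like UMI, a ratio of 109 with a counting interval of 19.3 to 4334 (edgeR adjusted p = 9.83e-13). Ccr2 was also called, with 25 memory-like UMIs against 1 (ratio 35.1, 5.74 to 1441), as was Cx3cr1, with 39 against 3 (ratio 18.3, 5.80 to 92.3). Cxcr4 was not, at 40.1 and 17.7 CPM in memory-like against 65.8 and 50.1 CPM in naive-like cells (edgeR adjusted p = 0.289). S1pr5 had 6 memory-like UMIs and none in naive-like cells.

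Too few CD4 T cells passed the gates for the test, with 30 female and 9 male naive-like and 22 and 17 memory-like cells. Their levels were Ccr7 363 and 331 CPM and S1pr1 373 and 414 CPM in naive-like cells, and Cxcr6 633 and 359 CPM and Cxcr3 348 and 359 CPM in memory-like cells. When T cells of any lineage were pooled by state, an alternative chosen after seeing the data, 311 and 189 memory-like cells could be compared with 139 and 79 naive-like cells. The same 6 genes were called in the same directions, with 8.36% of all genes called. Ccr2 there stood at 219 CPM (195 to 245) female and 181 CPM (152 to 215) male in memory-like cells, against 1 UMI in all naive-like cells. Cx3cr1 was at 31.5 and 30.0 CPM in memory-like cells, under the 109 and 177 CPM of the CD8 memory-like cells among them.

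T cells gated on gamma-delta receptor genes (148 female and 89 male) had Cxcr6 at 383 CPM (340 to 430) and 506 CPM (439 to 581), Cxcr3 at 205 and 262 CPM and Ccr2 at 247 and 144 CPM. Ccr7 was at 6.74 and 15.1 CPM in them. Only 18.9% and 21.4% of these cells held a Trdc UMI, so the gate rested mostly on the gamma-chain constant genes, which some alpha-beta T cells transcribe. In Cxcr3 the gated cells and the CD8 memory-like cells (224 and 257 CPM) were indistinguishable by their intervals, and ILC1-like NK cells came next at 186 and 190 CPM.

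B cells shared the naive T cell pattern in part. Follicular-like cells (214 female and 119 male) carried Ccr7 at 207 CPM (168 to 253) and 210 CPM (154 to 280), S1pr1 at 216 and 228 CPM, and Cxcr4 at 209 and 251 CPM. Innate-like cells (140 and 41) had Ccr7 at 35.2 and 36.8 CPM and Cxcr4 at 52.8 and 47.9 CPM, while S1pr1 was at 181 and 206 CPM. Ccr7 (log2 fold change -2.32, SE 0.35, edgeR adjusted p = 6.61e-07) and Cxcr4 (-1.90, SE 0.30, edgeR adjusted p = 1.59e-06) were lower in innate-like cells, 2 of the 9 genes, with 5.61% of all genes called. S1pr1 had a log2 fold change of 0.03 (SE 0.24), and its intervals overlapped in each library. The median depth was 6197 and 4864 UMIs in innate-like and 2006 and 1646 UMIs in follicular-like cells.

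Among conventional DCs, Ccr2 stood at 779 CPM (687 to 880) female and 1186 CPM (1048 to 1338) male in cDC2-like cells (70 female and 47 male) and at 500 CPM (415 to 598) and 665 CPM (559 to 785) in cDC1-like cells (46 and 39). The intervals were apart in both libraries, but the difference was not called (log2 fold change -0.61, SE 0.25, edgeR adjusted p = 0.167). Cxcr3 was the gene called, 1 of the 9 beside 4.45% of all genes. It was at 74.4 and 57.4 CPM in cDC1-like and 6.06 and 8.99 CPM in cDC2-like cells (log2 fold change 3.29, SE 0.70, edgeR adjusted p = 6.75e-04), resting on 30 against 4 UMIs, and the call was lost under a stricter gate. Mature DCs, the cells that use Ccr7 to reach lymph nodes, numbered 3 female and 1 male cells; the 3 female cells held 11 Ccr7 UMIs.

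Group 2 innate lymphoid cells (ILC2, 101 female and 79 male) had the highest mean Cxcr6 level of the 18 subsets, at 515 CPM (435 to 605) and 473 CPM (386 to 573). They could not be separated by their intervals from CD8 memory-like T cells in the male library, where those stood at 630 CPM. Gamma-chain-gated T cells stood at 506 CPM there. Memory-like T cells of any lineage, a pool outside the 18 subsets, had 454 CPM (419 to 490) female and 606 CPM (551 to 665) male. With clusters at resolution 0.5 the ILC2 levels were 382 and 259 CPM, in a class whose cluster was then led by Cpa3, a mast cell gene. The 8 T cell markers summed to 2490 and 2560 CPM in ILC2, against 5255 and 5339 CPM in T cells, and their part in the Cxcr6 level was not tested. Ccr2 in ILC2 was 939 CPM (830 to 1058) female and 720 CPM (612 to 842) male. After thinning, 22 of 97 female and 13 of 75 male ILC2 held both genes. Endothelial cells carried S1pr1, which keeps the vessel wall tight, at 307 CPM (226 to 407) and 174 CPM (115 to 254). Their Cx3cr1 (237 and 388 CPM) lay for 91.9% (female) in 5 cells, and macrophage markers summed to 4350 and 4327 CPM in the class, against 16600 and 16280 CPM in macrophages; their part in that value was not tested. Mast cells or basophils (24 and 7 cells) held 35 and 7 Cx3cr1 UMIs, of which the female ones lay for 74.3% in 5 cells.

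Ordered by mean level, neighbours seldom differed beyond counting error in both libraries. For S1pr5 the first break lay below nonclassical-like monocytes and the next below conventional-like NK cells. Ccr7 broke below follicular-like B cells, Cxcr2 below neutrophils, and Ccr2 below Aldh1a2-high macrophages. Cxcr6 broke below gamma-chain-gated T cells, below ILC1-like NK cells and below CD8 naive-like T cells, and Cxcr3 below ILC1-like NK cells. For Cx3cr1, Cxcr4 and S1pr1 no pair of neighbours was apart in both libraries.

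After the same thinning to 1000 UMIs, Cx3cr1 was detected in 41.9% of female and 39.9% of male macrophages (67.8% and 57.9% unthinned), against 3 of 500 and 2 of 254 B cells (1.35% and 0.746% unthinned). For Ccr2 the shares were 45.8% and 58.5% in DCs, and 3 of 500 and 3 of 254 B cells held a UMI. Ccr7 was detected in 11.6% and 14.6% of B cells and in 0 of 857 and 0 of 368 NK cells, which allows up to 0.350% and 0.815% of cells with a UMI at that depth (25.3% and 22.8% of B cells and 0.579% and 0.270% of NK cells unthinned). S1pr1 was detected in 16.0% and 22.0% of B cells and in 0 of 168 and 0 of 118 DCs, with no UMI in DCs unthinned either. This allows up to 1.79% and 2.54% of cells with a UMI at that depth and sets no limit on cells that express the gene. Cxcr3 was detected in 11.1% and 12.5% of NK cells against 0.388% and 0.402% of macrophages, and Cxcr4 in 42.5% and 58.5% of neutrophils against 3.38% and 4.62% of NK cells. Median depths were 2208 and 1780 UMIs in B cells, 4295 and 4468 in DCs and 4122 and 4866 in NK cells.

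Between the libraries, the question was whether the receptors of a class differ between female and male glands. With 1 library per sex there is no test. Of 30 receptor and class pairs with at least 50 UMIs in a library, 1 passed 2-fold, while 1.11% of all gene and class pairs did. Cxcr4 in macrophages was at 158 CPM female and 73.8 CPM male, a ratio of 2.15 (1.83 to 2.52). When both libraries were weighted to the same mix of macrophage subsets the ratio was 1.62, and with classes from a per-cell marker gate it was 1.99, just under 2-fold. Markers of other cells were also higher in the female macrophage class. Neutrophil markers summed to 224.5 CPM female and 105.3 CPM male, NK cell markers to 99.1 and 41.6 CPM, and T cell markers to 73.0 and 24.8 CPM. Their part in the Cxcr4 ratio was not tested. Within MHC class II high other macrophages, which numbered 466 and 500 cells, Cxcr4 was at 162 CPM (145 to 180) and 84.3 CPM (72.1 to 97.9), a ratio of 1.92 (1.59 to 2.32), while in the MHC class II low group the levels were 208 and 254 CPM, a ratio of 0.820 (0.495 to 1.44) on 17 male UMIs. The other pairs ranged from 0.667 for Cxcr4 in neutrophils to 1.30 for Ccr2 in ILC2. In macrophages the ratios of Cx3cr1 (1.07) and Ccr2 (0.808) both crossed 1 when the libraries were given the same subset makeup. In T and NK cells Cxcr6 and Cxcr3 were lower in the female library, with ratios of 0.730 and 0.786 in T cells and 0.715 and 0.787 in NK cells. In ILC1-like NK cells alone the Cxcr3 ratio was 0.979 (0.786 to 1.22), while that of Cxcr6 was 0.760 (0.641 to 0.903).

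At the level of subsets, 3 of 35 pairs passed 2-fold, beside 2.58% of all gene and subset pairs. Ccr2 in nonclassical-like monocytes was at 140 CPM (18 UMIs) female and 451 CPM (81 UMIs) male, a ratio of 0.310 (0.175 to 0.522), and 5 cells held 83.3% of the female and 58.0% of the male UMIs. Cxcr3 in conventional-like NK cells had a ratio of 0.459 (0.323 to 0.650), with 66 and 72 UMIs. The remaining pair was Ccr2 in MHC class II low other macrophages (2.11, 0.795 to 7.91), which rested on 4 male UMIs and whose interval held 1. In that subset 16.0% of all genes passed 2-fold. Whether these pairs would differ between further animals was not tested.

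**Figure D4:**
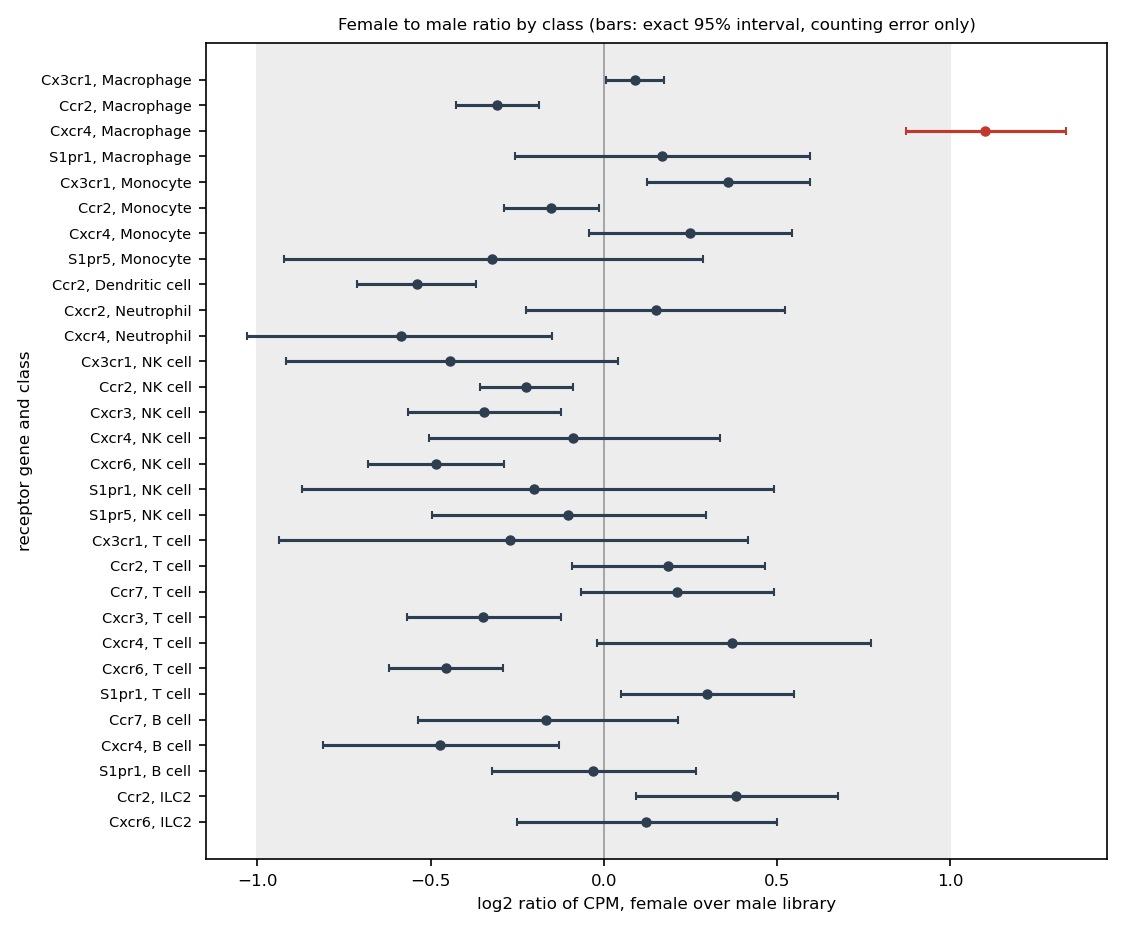
log2 ratio of CPM between the female and the male library for each receptor gene and class with at least 50 UMIs in a library, with exact 95% intervals (bars, counting error only) and the range under 2-fold shaded. Of the 30 points, Cxcr4 in macrophages (red) lies past 2-fold, at a ratio of 2.15.

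The wider receptor list held 19 further chemokine and S1P receptors, of which 8 had at least 100 UMIs. Ccr1 was highest in neutrophils (628 and 495 CPM) and Ccrl2 too (205 and 56.2 CPM). S1pr2 was highest in macrophages (29.7 and 35.2 CPM). Among classes, Ccr9 and S1pr4 were highest in ILC2 (153 and 142 CPM, and 93.9 and 55.1 CPM). Cxcr5, the follicle receptor, was highest in B cells (93.1 and 86.1 CPM) and Xcr1 in DCs (88.9 and 154 CPM). Among subsets, S1pr4 was highest in follicular-like B cells (105.8 and 82.15 CPM). Of the 8 tested between subsets, edgeR called 2 in CD8 T cells (4.68% of all genes), 2 in monocytes (6.93%), 3 in DCs (4.45%), 2 in B cells (5.61%), 3 in Aldh1a2-high macrophages (19.5%) and 1 in Lyve1-high macrophages (14.9%). DESeq2 called 1 in CD8 T cells, 1 in monocytes, 3 in Aldh1a2-high macrophages and 0 in Lyve1-high macrophages. Between NK subsets, where 4.39% of all genes were called, edgeR and DESeq2 called 0 of the 8, with 3 at an unadjusted p under 0.05. Xcr1 had 155 UMIs in cDC1-like and 0 in cDC2-like cells, at least 63.3-fold higher with 3 counts over both libraries as the floor, while Ccr1 was lower there. Ccr9 was lower in memory-like CD8 T cells (1 UMI against 52). Classical-like monocytes had more Ccr1 (39 against 2 UMIs).

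Of the further macrophage and B cell calls in this list, Ccr1 was lower in Aldh1a2-high macrophages (log2 fold change -1.35, SE 0.28). It was also called lower in Lyve1-high macrophages by edgeR (-1.10, SE 0.30), but not by DESeq2. The libraries differed there, at 161 CPM female and 46.3 CPM male against 150 and 167 CPM in other macrophages. In Aldh1a2-high macrophages S1pr2 was lower (-1.76, SE 0.52), and Ccr9 was called on 6 against 4 UMIs. Innate-like B cells had more Ccr1 (47 UMIs against 1) and Ccr9 (22 against 1) than follicular-like ones.

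Of 17 ligand genes 16 were in the tables and 8 reached 100 UMIs. Cxcl16, the ligand of Cxcr6, was highest in macrophages, at 539 CPM female and 516 CPM male, and was lower in Lyve1-high (log2 fold change -1.93, SE 0.24) and Aldh1a2-high macrophages (-3.58, SE 0.28) than in other macrophages, with edgeR adjusted p = 5.37e-10 and 6.08e-19. Cxcl12, the ligand of Cxcr4, was highest as a class in endothelial cells (70.4 and 96.9 CPM) and was higher in Lyve1-high macrophages (107 and 154 CPM; log2 fold change 4.47, SE 0.55, edgeR adjusted p = 5.89e-10). The Ccr2 ligands Ccl2, Ccl7 and Ccl12 were highest in macrophages (53.1 and 54.0, 31.1 and 28.8, and 62.3 and 121 CPM). The Cxcr3 ligands Cxcl9 and Cxcl10 were highest as a class in DCs (158 and 84.8, and 58.8 and 32.9 CPM). Among subsets, Cxcl10 was highest in classical-like monocytes (70.8 and 50.3 CPM). Cxcl9 was found with 115 UMIs in cDC1-like cells and 0 in cDC2-like cells, at least 46.9-fold higher. Cxcl2, a ligand of Cxcr2, was highest in the neutrophils themselves (1135 and 1843 CPM). The fractalkine gene Cx3cl1 had 11 UMIs in all cells, and Ccl19 and Ccl21a, the ligand genes of Ccr7, had 0 and 1, each symbol standing on 2 rows of the tables.

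In the subset tests, 6 of 9 ligands tested were called in Lyve1-high macrophages, beside 14.9% of all genes, and DESeq2 called 2. By edgeR 3 were higher (Ccl8, Cxcl9 and Cxcl12) and 3 lower (Ccl12, Cxcl2 and Cxcl16). Cxcl9 was at 215 CPM female but 15.4 CPM male there, against 13.1 and 12.5 CPM in other macrophages. In Aldh1a2-high macrophages 3 were called, all lower (Ccl7, Cxcl16 and Ccl12), beside 19.5% of all genes, and 1 by DESeq2. MHC class II low macrophages had more Ccl2 (log2 fold change 2.15, SE 0.37) and Cxcl2 (1.97, SE 0.32). Ccl2 was at 77.8 CPM female and 343 CPM male there, the latter on 23 UMIs, against 24.4 and 27.3 CPM where MHC class II was high, so the male difference was the larger. Cxcl9 had 62 UMIs in the larger MHC class II high group and 0 in the low group, at least 3.93-fold higher in the former. These were 3 edgeR calls, beside 1.1% of all genes, while DESeq2 made 1. In monocytes Cxcl10 and Ccl2 were higher in classical-like cells, with 45 against 0 and 31 against 1 UMIs, and DESeq2 called 0. Scaled to group totals, Cxcl10 was at least 6.67-fold higher, and Ccl2 had a ratio of 13.8 (2.30 to 562). Cxcl10 was called in ILC1-like NK cells on 45 UMIs, all from the female library, against 3, and by DESeq2 it was not called. No ligand was called by edgeR or DESeq2 in CD8 T cells (4.68% of all genes by edgeR), with 0 at an unadjusted p under 0.05, or in B cells (5.61%), with 1.

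Of 7 genes that make, export or break down S1P, Plpp3 and Plpp1, membrane phosphatases that degrade it outside the cell, were highest in endothelial cells (2034 and 2499 CPM, and 883 and 782 CPM). Sgpl1, the S1P lyase, was highest in macrophages (101 and 115 CPM) and higher in Lyve1-high than in other macrophages, at 245 and 247 CPM against 86.4 and 91.2 CPM (log2 fold change 1.21, SE 0.24, edgeR adjusted p = 6.02e-05). In Lyve1-high macrophages 14.9% of all genes were called. Sphk2, a kinase that makes S1P, was called by edgeR in classical-like monocytes on 32 against 3 UMIs (6.93% of all genes), but not by DESeq2. Plpp1 was called in cDC1-like DCs on 12 against 1 (4.45% of all genes). The exporter Spns2 had 45 UMIs in all.

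Of 7 regulators of these receptors, Klf2, a transcription factor known to switch on S1pr1, was lower in ILC1-like NK cells, at 52.0 and 58.6 CPM against 856 and 598 CPM (log2 fold change -3.71, SE 0.24, edgeR adjusted p = 3.78e-22). It was lower in memory-like CD8 T cells too (-1.82, SE 0.25, edgeR adjusted p = 4.90e-08), and higher in Lyve1-high (2.66, SE 0.21) and in Aldh1a2-high macrophages (2.29, SE 0.21), where S1pr1 was higher in the former and lower in the latter. Zeb2, a repressor active in mature NK and effector T cells, was lower in ILC1-like NK cells (-3.99, SE 0.26) and in cDC1-like DCs (-3.73, SE 0.44), and higher in memory-like CD8 T cells on 25 against 2 UMIs. Tbx21, the T-bet gene, had 31 UMIs in memory-like and 0 in naive-like CD8 T cells, at least 14.5-fold higher, and was not called between NK subsets, at 93.2 and 109 CPM in ILC1-like against 133 and 142 CPM in conventional-like cells. Foxo1, a regulator of naive T cell homing, was lower in memory-like CD8 T cells (-1.77, SE 0.44) and in innate-like B cells (-1.11, SE 0.31). Cd69, whose protein draws S1PR1 into the cell, was lower in innate-like B cells (-1.01, SE 0.24), and Arrb2, an arrestin, in Aldh1a2-high macrophages (-2.15, SE 0.24). Of the 7, 4 were called in CD8 T cells (4.68% of all genes), 2 in NK cells (4.39%), 2 in B cells (5.61%), 1 in DCs (4.45%), 2 in Aldh1a2-high macrophages (19.5%) and 1 in Lyve1-high macrophages (14.9%).

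The genes whose level across subsets was most like that of each receptor were found over 36 points, 18 subsets in 2 libraries, and are a description. For Cx3cr1 they were Slc8a1, Itgb5, Lair1, Ctsb and Trem2 (Pearson r 0.86 to 0.88), and for Ccr2 they were Cox6b1, Uqcrq, Smdt1, Dbi and Arhgdia (0.83 to 0.85). Cxcr2 had Camp, Lcn2, Ngp, Retnlg and Ltf (0.98 to 0.99), all genes of neutrophil granules or secretion. Ccr7 had Slamf6, Gm8369, BE692007, Bach2 and Crlf3 (0.78 to 0.85), and Cxcr3 had Plekha5, Tbx21, Cd160, Fasl and Serpinb6b (0.82 to 0.86). Cxcr6 had Cd3g, Bcl11b, Thy1, Trbc2 and Pglyrp2 (0.91 to 0.93), Cxcr4 had among others Xylt1, Fhod1, Csf3r and Il1b (0.78 to 0.80), S1pr1 had Ralgps2, mt-Co3, Zfp280d, mt-Co1 and Chchd10 (0.72 to 0.78), and S1pr5 had Itga4, Nab1, B4galt5, Nabp1 and Itgal (0.70 to 0.74). Among the receptors themselves, r was highest between Cxcr3 and Cxcr6 (0.78), between Ccr7 and S1pr1 (0.65) and between Cxcr2 and Cxcr4 (0.60), and lowest between Ccr2 and Ccr7 (-0.67). The points share libraries, and sparse subsets weigh as much as deep ones.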

How the data were processed

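CD45+ cells sorted from adrenal glands of 7-week-old C57Bl/6 mice were captured with 10x Genomics chemistry, 1 female and 1 male library. The deposited values are raw UMI counts per gene and barcode that the authors made with Cell Ranger 4.0.0 against mm10, with the lowest barcode at 500 UMIs. From these, barcodes with at least 200 genes and at most 15% mitochondrial UMIs were kept. The study's own mitochondrial ceiling was not used, because it keeps few barcodes on the percent scale. Scrublet in scanpy 1.11.5 scored doublets, and the top 0.8% per 1000 barcodes were removed, leaving 15020494 female and 9014391 male UMIs. Cells were clustered with Seurat 5.3.0 (20 components, resolution 1) with the receptor and pathway genes held out. Clusters were named from marker lists, with scoring set after the clusters were seen.

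Subsets were gated per cell, at least 2 distinct markers (3 for macrophage subsets) and 75% or more of the detected markers (UMIs where a competing list was short) belonging to 1 list. T cell lineage needed 1 UMI. Other macrophages were split at 10 MHC class II UMIs per 1000. The gate's form was set after seeing the cells. Sums were tested with edgeR 4.0.16 (TMM, low-count filter), tested on simulated data, and DESeq2 1.42.0. In tests against other macrophages, their MHC class II low and high groups weighed equally, while printed CPM pooled them. Standard errors were taken from the F statistic. Thinned shares used 1000 UMIs per cell, leaving out shallower cells. Counts of 0 were bounded by 3 counts. All 9 receptors are named throughout. Other pathway genes are named if called (at most 4 a direction), or by their highest class at 100 UMIs or more. The 5 most similar genes have at least 200 UMIs. The receptors, gene lists and markers were chosen with earlier results of these data known. Alternatives changed the filter, scaling, gates, doublets, resolution and mitochondrial ceiling (5%). Some genes of these lists are not reported here.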

Additional observations from a re-analysis of the deposited data

How the results depend on the processing

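Of 27 called receptor differences, all kept their direction in each of the female and the male library alone and under every alternative run. Leaving out a library leaves 1 sum per subset, so these are differences with no test, on the log2(CPM + 1) scale. Against other macrophages they use the pooled CPM of both MHC class II groups, which the test weighs equally. They moved by more than the standard error for 20 of 27 without the female and 12 of 27 without the male library. DESeq2 left 25 of 27 called, no low-count filter 26, doublets kept 26, and a stricter gate 14 of the 16 it could give (Ccr2 in NK cells fell to -0.81). Under that gate no receptor was called between cDC1-like and cDC2-like cells (0 in place of 1; Cxcr3 2.38). A stricter gate left under 20 cells in a library for CD8 T cells and Lyve1-high macrophages, and doublets kept did so for MHC class II low macrophages, so these gave no test. The CD4 T cell and mature DC comparisons were not run for the same reason. No paired analysis was possible because each sex has 1 library, and the tests between subsets already carried library as a term.

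Receptor and class pairs past 2-fold between libraries numbered 1, and 0 with classes from a per-cell marker gate or with equal subset makeup. The ratio for Cx3cr1 in macrophages went from 1.07 to 0.937 with equal subset makeup and 0.996 under a 5% mitochondrial ceiling, and for Ccr2 from 0.808 to 1.09 with equal makeup. The cause was not tested. A stricter gate moved Ccr7 in CD8 naive-like T cells from 403 and 344 to 161 and 164 CPM, on 7 and 5 cells, and Cxcr6 in male ILC2 went from 473 to 259 CPM at resolution 0.5. Of 18 thinned shares, 16 moved beyond their interval when unthinned. Lists of similar genes were unstable: with Spearman correlation 1 of 9 kept at least 4 of its 5 genes. Depth limits receptors with few UMIs, S1pr5 (230 female and 136 male) and Cxcr2 (135 and 135) first.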
